A study of Mus musculus with 4 samples.

Results

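The miR-193 and miR-365 genes form a pair of small clusters in the mouse genome, and their mature microRNAs (miRNAs, small RNAs that silence messenger RNAs) were followed here in normal mouse liver and in liver tumours. The members were the mouse probes whose name, without an arm suffix, is miR-193, miR-193a, miR-193b or miR-365, with star arms left out. The rule uses names only and found 3 of the 566 mouse miRNA probes in the table, namely mmu-miR-193, mmu-miR-193b and mmu-miR-365, written below without the species prefix. Per the labels' protocols, female NF2fl/fl mice, in which both copies of Nf2 can be cut out by Cre recombinase, received either PBS or AAV2/8-Cre, a virus that carries Cre and was used to delete the gene in hepatocytes. Merlin, the protein made from Nf2, restrains growth through Hippo signalling. Livers were inspected after 50 weeks, and tumours were dissected for RNA. There were 2 normal liver samples and 2 liver tumour samples. The samples may share animals, since the labels state 3 mice without dividing them between the groups, and give no age, no promoter for Cre, no link of the normal samples to PBS, and nothing that ties a sample to an animal. The p-values below therefore reflect only how far these samples lie apart, and that spread may be technical. The comparison asks which miRNAs differ between normal liver and tumours that followed loss of Nf2.

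A miRNA is cut as a hairpin from a longer transcript, and the mature strand pairs with target messenger RNAs mainly through its seed, bases 2 to 8. MiR-193a and miR-193b share a seed and are known from human cancer cells as repressors of growth and survival genes, among them the genes of cyclin D1, which drives the cell cycle, and of MCL1, a brake on cell death. MiR-365 has a different seed, is encoded beside each of them, and is known from human cells for repressing BCL2, another brake on cell death, and the cytokine IL6. The miR-193b and miR-365 cluster is also known from mouse brown fat, where it was described as a promoter of brown adipocyte differentiation.

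The mature sequences are shown because they decide which targets the miRNAs share and which loci a probe can tell apart. All 3 members matched a mature RefSeq miRNA of build GRCm38.p6. The older names in the table carry no arm, and they were read as the 3p arms, which those names usually denoted at the time. The probe sequences were not used here, so the arm was not checked, and the statements below on seeds and shared loci rest on this reading. Capitals mark the seed.

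mmu-miR-193a-3p: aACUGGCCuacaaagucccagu

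mmu-miR-193b-3p: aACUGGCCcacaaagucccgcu

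mmu-miR-365-3p: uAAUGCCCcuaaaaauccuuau

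MiR-193a-3p and miR-193b-3p have the seed ACUGGCC in common, and no other of the 1679 mature miRNA names in the RefSeq table has it. They are identical at 19 of 22 bases. Counted from the 5′ end, and written with the base of miR-193a-3p first, they differ by U9C, A20G and G21C. Each seed base is the same, and cross-hybridisation between the miR-193 and miR-193b probes was not tested. The seed of miR-365-3p, AAUGCCC, belongs to no other name in that table.

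The hairpins show how the loci relate, with the mature 3p strand in capitals.

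Mir193a: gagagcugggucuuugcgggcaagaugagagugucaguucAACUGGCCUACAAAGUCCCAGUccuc

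Mir365-2: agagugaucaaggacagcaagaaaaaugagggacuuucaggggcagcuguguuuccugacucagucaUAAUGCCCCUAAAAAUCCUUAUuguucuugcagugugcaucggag

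Mir193b: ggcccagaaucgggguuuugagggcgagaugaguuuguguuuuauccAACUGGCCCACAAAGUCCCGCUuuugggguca

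Mir365-1: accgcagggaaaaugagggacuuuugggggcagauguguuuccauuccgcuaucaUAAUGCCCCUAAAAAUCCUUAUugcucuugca

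Mir193a lies at chr11:79711969-79712034 and Mir365-2 at chr11:79726400-79726511, both on the plus strand, with 14365 bases between the hairpins. Neither overlaps another gene in the RefSeq annotation. Mir193b lies at chr16:13449523-13449601 and Mir365-1 at chr16:13453840-13453926, also on the plus strand and 4238 bases apart. The coordinates of these hairpins overlap those of the long noncoding RNA genes Gm32817 and Gm53058, whose strand was not compared. The hairpins Mir365-1 and Mir365-2 give the same mature 3p strand, so the miR-365 probe counts the product of both clusters, whereas the miR-193 and miR-193b probes each stand for 1 cluster. The 5p strands of Mir365-1 and Mir365-2 differ by U10C, G11A and A19C, with the base of Mir365-1 first. The 5p (star) strands of the members had no probe in the table analysed here.

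RNA was measured with the nCounter miRNA Expression Assay, in which colour-coded probes are counted one by one. The deposited values are probe counts times 1 factor per sample, and whole counts could be recovered for 100% of the scaled probes in every sample, within 0.1 count. Summed over the mouse miRNA probes, normal liver samples held 68260 and 62054 recovered counts and tumour samples 239727 and 123818. The factors were 2.09 and 2.30 for normal liver, against 0.395 and 0.905 for the tumours, so a count weighed more in normal liver. Samples of a group were treated as separate libraries, since their counts lay farther apart than sampling noise (a chi-square of 3.13 per degree of freedom for the normal livers and 34.0 for the tumours). MiR-122, which defines hepatocytes, made up 13.2% and 14.6% of miRNA counts in tumours, against 17.2% and 20.4% in normal liver.

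In the deposited scaling, miR-193 and miR-365 were lower in the tumours and passed the test, while miR-193b was lower without passing it. The fold was 1.89 for miR-193 and 2.10 for miR-365, as normal liver over tumour on the log2(value + 1) scale. Both changes were close to the median change over all miRNAs tested. They were larger falls than the median of -0.31 over the 136 miRNAs detected in all 4 samples. Both calls ended under most other scalings. Depth was sufficient for detection: each of the 3 miRNAs was above the detection threshold (mean plus 2 SD of the negative controls) in all 4 samples.

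MiR-193, from the chromosome 11 cluster, had the lowest counts of the members. Probe mmu-miR-193 had recovered counts of 39 and 33 in the normal livers, and of 81 and 58 in the tumours, against thresholds of 18.3, 11.2, 17.6 and 14.9. Its scaled counts were 81.3 and 75.8 in normal liver against 32.0 and 52.5 in tumours. Both tumours were below both normal livers, and the tumours also differed from each other. The 95% counting interval on the scaled value (exact Poisson, counting error only, here and below) was 25.4 to 39.8 in liver tumour replicate 1 and 39.9 to 67.9 in liver tumour replicate 2. The group means were 78.6 ± 3.94 and 42.2 ± 14.5 scaled counts (SD, n = 2 per group). The difference, tumour minus normal, was -0.92 on the log2(value + 1) scale (SE 0.32, 95% interval -1.68 to -0.16, limma adjusted p = 0.0466). The call ended without normal liver replicate 1 (adjusted p = 0.19), without normal liver replicate 2 (adjusted p = 0.17) and without liver tumour replicate 1, where limma gave -0.57 (adjusted p = 0.193). It also ended with the negative-control background subtracted (-0.72, limma adjusted p = 0.23).

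MiR-193b (probe mmu-miR-193b), from the chromosome 16 cluster, had 94 and 87 recovered counts in normal liver against 262 and 169 in tumours. Its scaled counts were 196.1 and 199.8 in normal liver against 103.5 and 153 in tumours. The normal livers lay close together, the tumours lay below them, and the tumours differed beyond counting error, with intervals of 91.3 to 116.8 and 130.8 to 177.8. The means were 198 ± 2.63 and 128 ± 35.0 (SD, n = 2 per group). The difference of -0.65 (SE 0.29, 95% interval -1.36 to 0.058) did not pass the test (limma adjusted p = 0.103). It passed without liver tumour replicate 2 (-0.93, limma adjusted p = 0.0475), and was -0.37 without liver tumour replicate 1 (limma adjusted p = 0.382).

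MiR-365 (probe mmu-miR-365), the shared product of both clusters, had 190 and 149 recovered counts in normal liver against 434 and 197 in tumours. Its scaled counts were 396.3 and 342.1 in normal liver against 171.5 and 178.3 in tumours. The groups did not overlap, and here the tumours differed by less than counting error, with intervals of 155.7 to 188.4 and 154.3 to 205.0. The means were 369 ± 38.3 and 175 ± 4.84 (SD, n = 2 per group). The difference was -1.07 (SE 0.26, 95% interval -1.69 to -0.45, limma adjusted p = 0.0134). The call ended without normal liver replicate 1 (-0.96, limma adjusted p = 0.0735) and without normal liver replicate 2 (-1.18, limma adjusted p = 0.0637), and with the negative-control background subtracted (-1.04, limma adjusted p = 0.089). It held without either tumour.

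**Figure D1:**
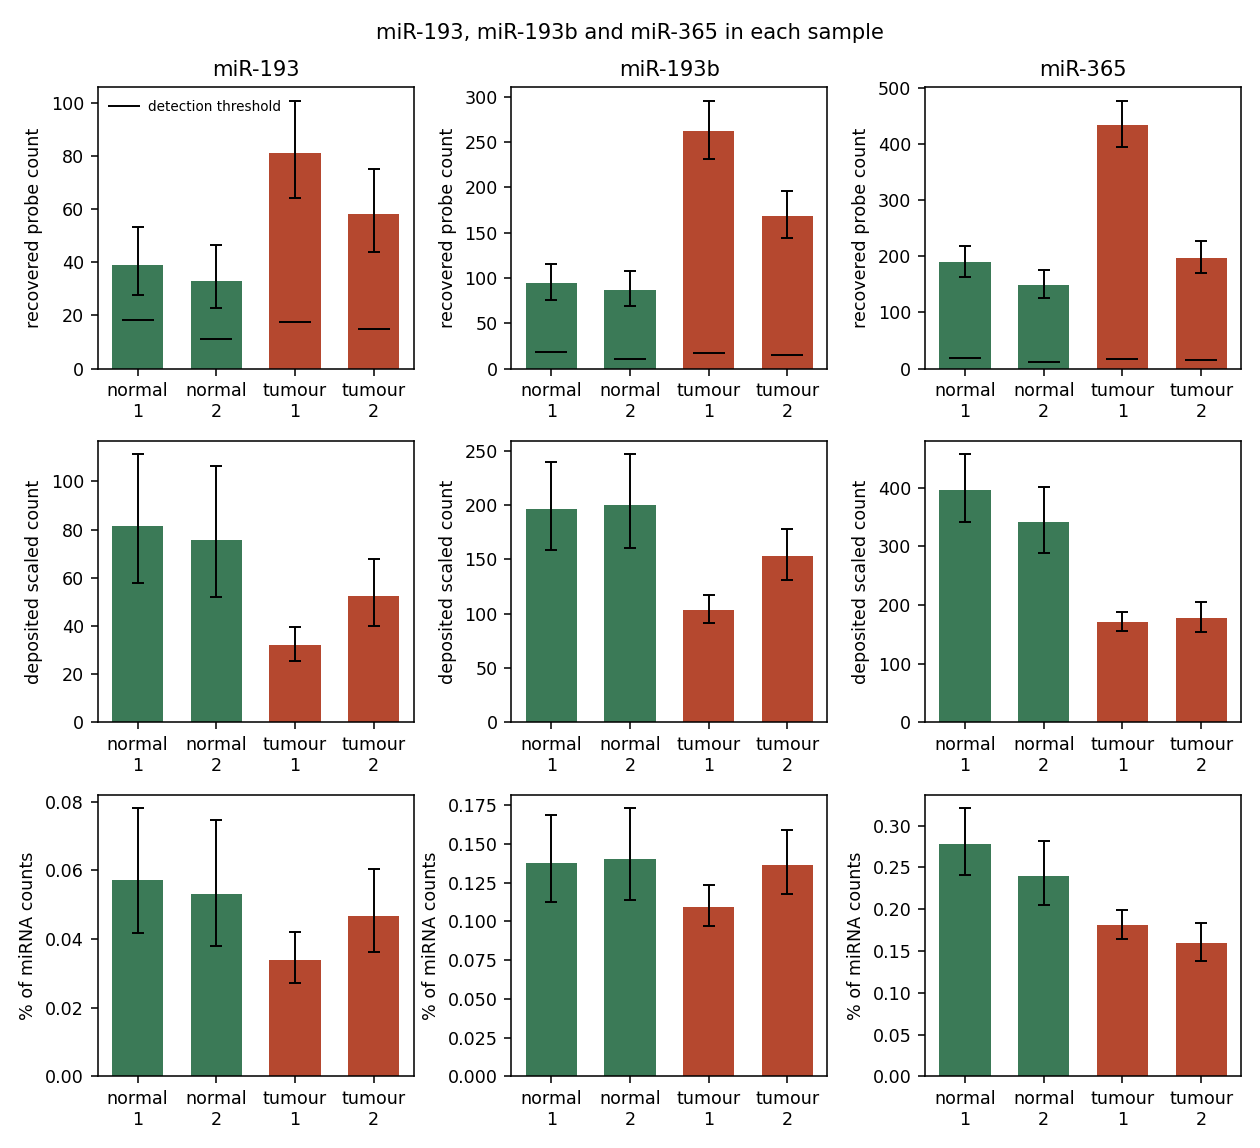
Each column is 1 miRNA and each bar 1 sample (green normal liver, red liver tumour); the rows give the recovered probe count with the detection threshold as a short line, the deposited scaled count, and the percent of all mouse miRNA counts, with 95% intervals for counting error (exact Poisson in the upper rows, Wilson in the lowest). The counts are higher in both tumours, and after the authors' factors the scaled counts are lower in both tumours.

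As a share of all mouse miRNA counts, a measure that does not use the authors' factors, the members were rare species. MiR-193 made up 0.0571% and 0.0532% of counts in normal liver against 0.0338% and 0.0468% in tumours. The Wilson 95% interval was 0.0418% to 0.0781% in normal liver replicate 1 and 0.0362% to 0.0605% in liver tumour replicate 2, so a difference between these samples was not detectable at this depth. MiR-193b made up 0.138% and 0.140% in normal liver against 0.109% and 0.137% in tumours, where liver tumour replicate 2 lay close to the normal livers. MiR-365 made up 0.278% and 0.240% in normal liver against 0.181% and 0.159% in tumours. Its interval was 0.205% to 0.282% in normal liver replicate 2 and 0.165% to 0.199% in liver tumour replicate 1. By this measure both tumours lay below both normal livers for each of the members, narrowly so for miR-193b. How many other miRNAs kept the groups apart by this measure was not counted. In the deposited scaling, tumours lay below for 64.5% of kept miRNAs. With equal totals, a related scaling, miR-365 had a difference of -0.60 (limma adjusted p = 0.139). It stood there at place 121 of the 276 miRNAs tested, from the largest fall. By count among the 566 probes, which can differ in capture efficiency, miR-365 ranked 39th and 42nd in normal liver against 65th and 59th in tumours. The ranks of miR-193b were 61st in each normal liver and 82nd and 69th in the tumours, and those of miR-193 were 95th and 104th against 128th and 103rd.

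The members' falls were read against the whole panel. In all, 276 mouse miRNAs passed the filter on low values (mean log2 value over the 4 samples above 3.925), and each of the 3 members was among them. Limma called 129 of the 276 lower, or 46.7%, and 22 higher, or 7.97%. Of the 3 members, 2 were called lower and 0 higher, against that background of 46.7%. When only the 136 miRNAs detected in all 4 samples were tested, limma called the same 2 lower, beside 50 of the 136. Both tumours lay below both normal livers for all 3 members, and for 64.5% of the kept miRNAs. The median difference over all kept miRNAs was -0.90. MiR-193 differed from that median by -0.02, miR-365 by -0.17 and miR-193b by 0.25 on the same scale. Ordered from the largest fall, miR-365 stood at place 121, miR-193 at 134 and miR-193b at 160. Among the 136 miRNAs detected in all 4 samples, whose median was -0.31, miR-365 stood at place 37, miR-193 at 42 and miR-193b at 57. From that median miR-365 differed by -0.76, miR-193 by -0.61 and miR-193b by -0.34, so they were not near it.

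**Figure D2:**
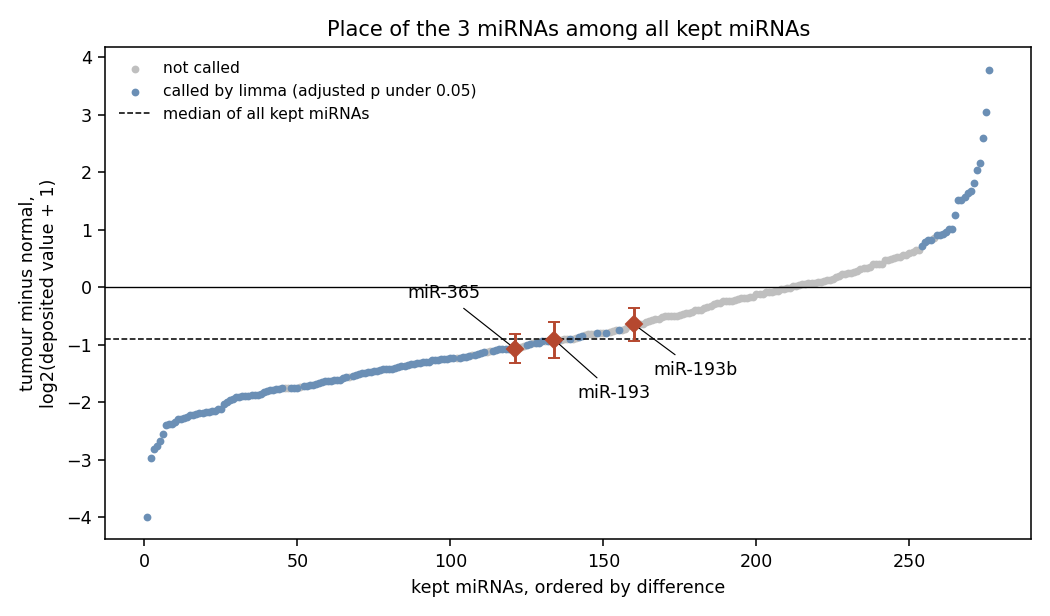
The difference between tumour and normal liver in log2(deposited value + 1) is plotted for the 276 kept miRNAs in order of size, with miRNAs called by limma in blue and the members as red diamonds with their SE. The members lie near the dashed line at the median of -0.90 over these 276, which include miRNAs not detected in every sample.

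The size of each difference, and for miR-193b and miR-193 also its direction, depended on how the samples were made comparable. The difference of miR-365 stayed below 0 in each of the 8 scalings run, between -1.14 and -0.05. With the spiked positive controls set equal, miR-193 had a difference of 0.085 (limma adjusted p = 0.932), miR-193b one of 0.37 (adjusted p = 0.64) and miR-365 one of -0.05 (adjusted p = 0.951). None of the 3 was called there, against 3.62% of kept miRNAs called lower and 15.9% called higher. The positive-scaled counts of miR-193b were 121.2 and 136 in normal liver against 169.5 and 162.6 in tumours, the opposite order from the deposited values. Tumours above both normal livers were seen for 38.4% of kept miRNAs in that scaling. The positive-scaled counts of miR-193 were 50.3 and 51.6 against 52.4 and 55.8, also higher in both tumours, though narrowly. Those of miR-365 were 245.1 and 232.9 against 280.8 and 189.6, where the groups overlap. With the 4 messenger RNA probes set equal, a setting chosen after seeing the data, the differences were -0.99, -0.72 and -1.14 for miR-193, miR-193b and miR-365, close to the deposited ones, and limma called none (adjusted p = 0.154, 0.313 and 0.0936). There 34.4% of kept miRNAs were called lower. EdgeR on the recovered counts with TMM factors gave -0.08, 0.21 and -0.22 and called none (adjusted p = 0.878, 0.504 and 0.379), with 14.1% of kept miRNAs called lower and 25.7% higher. With equal medians, where 18.1% of kept miRNAs were called lower, and with equal totals, where 26.8% were, limma called none of the members. EdgeR with the authors' own factors gave differences of -0.94, -0.64 and -1.08, near the deposited ones, and called all 3 lower (adjusted p = 0.038, 0.0458 and 0.00202), against 51.1% of kept miRNAs. Over 8 scalings, the deposited one and edgeR with TMM included, miR-193 was called in 1, miR-193b in 0 and miR-365 in 2. The second call of miR-365 came with quantile normalization (-1.11, limma adjusted p = 0.046), where 4.71% of kept miRNAs were called lower and miR-365 had the 20th lowest difference of 276. MiR-193 and miR-193b had differences of -0.41 and -0.51 there and were not called (limma adjusted p = 0.383 and 0.234).

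**Figure D3:**
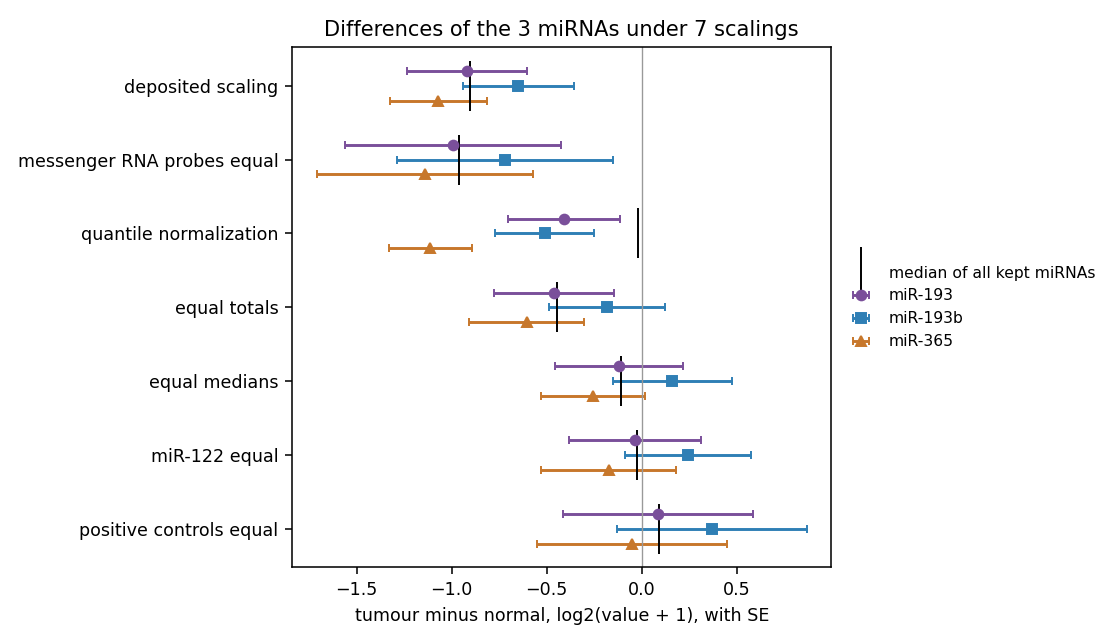
Differences between tumour and normal liver, in log2(value + 1) with limma's SE, are plotted for the 3 members under the deposited scaling and 6 others, with the median of all 276 kept miRNAs as a vertical tick. Outside quantile normalization the members move with the median, which is -0.96 with the messenger RNA probes set equal, -0.90 as deposited and 0.092 with the positive controls set equal.

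Ratios between members within a sample do not depend on any scaling factor, and they were compared in 3 pairs. A ratio of probe counts is not a ratio of molecules, since probes can differ in efficiency, so only its change between samples was read. The miR-193b to miR-193 count ratio, which sets the chromosome 16 product against the chromosome 11 product, was 2.41 and 2.64 in normal liver against 3.24 and 2.91 in tumours. Both tumours were above both normal livers. The log2 ratio differed by 0.28, with a counting SE of 0.25. That difference shrank to 0.16 with the negative-control background subtracted, 0.18 with a pseudocount of 10 and 0.057 with a pseudocount of 30. The pseudocounts were added to the deposited values, so the ratios with a pseudocount do depend on the authors' factors.

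The miR-365 to miR-193b ratio was 2.02 and 1.71 in normal liver against 1.66 and 1.17 in tumours. It was lower in both tumours, narrowly so in liver tumour replicate 1. The log2 ratio differed by -0.42, with a counting SE of 0.16, and by -0.17 without liver tumour replicate 2. The miR-365 to miR-193 ratio was 4.87 and 4.52 in normal liver against 5.36 and 3.40 in the tumours, which lay on either side of the normal livers. Its log2 ratio differed by -0.14, and by 0.19 without liver tumour replicate 2. Two-sided exact permutation tests gave p = 0.333, 0.333 and 1 for these ratios (0.5, 0.5 and 1 adjusted over the 3), and 0.333 is the smallest p that 2 samples against 2 allow.

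**Figure D4:**
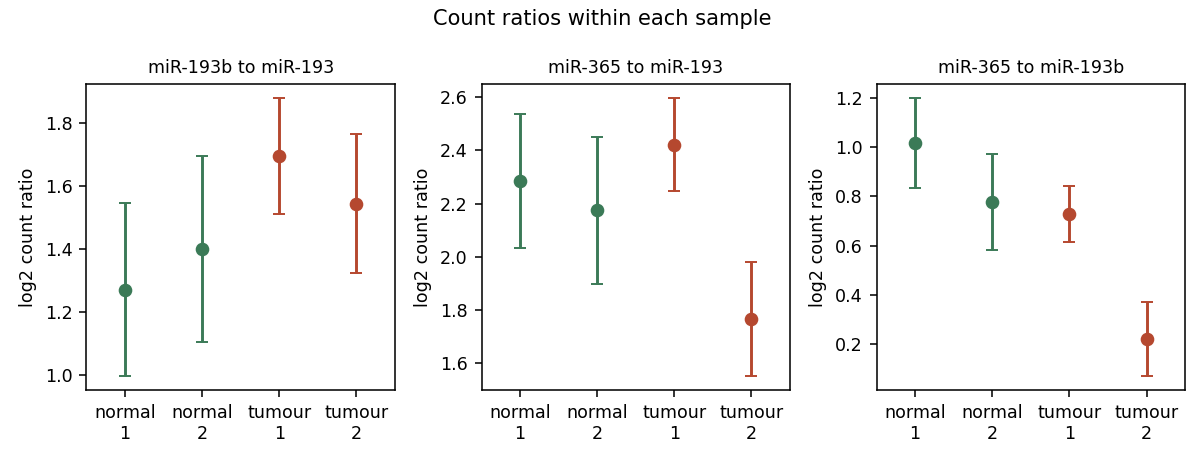
The log2 ratio of recovered counts between members is plotted for each sample (green normal liver, red liver tumour), with bars for the SE from counting error. Liver tumour replicate 2 has the lowest ratio of miR-365 to each of the others.

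MiRNAs with the most similar profile were found by the Euclidean distance between log2 values centred on each miRNA's mean over the 4 samples. With 4 samples this is a description of these samples only. The nearest miRNAs were chosen on the same values that limma tested, so their differences and calls follow from that choice. They add no evidence on the members. Over all kept miRNAs limma called 46.7% lower. MiR-193b stood 6th nearest to miR-193 among the other 275 kept miRNAs, at a distance of 0.30, and miR-193 stood 7th nearest to miR-193b. MiR-365 was farther from both, at 0.48 from miR-193 and 0.58 from miR-193b. The nearest to miR-193 was miR-34c, a miRNA induced by p53, with a distance of 0.16 and a difference of -0.84 that did not pass the test (limma adjusted p = 0.0827). The next were miR-190b, miR-691, miR-1983 and miR-151-3p, of which miR-691 (-1.07, limma adjusted p = 0.0393) and miR-151-3p (adjusted p = 0.0454, detected in 1 of 2 normal livers) were called lower. The nearest to miR-193b were miR-328, miR-190b, miR-1983, miR-466g and miR-543, and limma called none of these. MiR-328 was detected in 1 of 2 normal livers and miR-1983 in neither. The nearest to miR-365 were miR-1224, miR-2146, miR-7b, miR-378 and the probe shared by miR-467h, miR-669d and miR-669l, and limma called all 5 lower. Of these, miR-1224 and miR-378 were detected in all 4 samples and miR-7b in neither normal liver. Among the 13 different neighbours of the members, 6 were not detected in all 4 samples. MiR-378, encoded within the metabolic regulator gene Ppargc1b, went from a mean of 345 to 163 scaled counts (limma adjusted p = 0.0144).

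Other miRNAs reported to act on the same targets were described from lists. Of 10 probes for reported repressors of cyclin D1, 8 were kept. In the deposited scaling 1 rose, miR-34a (0.78, limma adjusted p = 0.046), and 1 fell, miR-15a (-0.85, adjusted p = 0.029). These counts stand beside 7.97% called higher and 46.7% called lower over all kept miRNAs. The list's median was 0.14, against -0.90 over all kept miRNAs, and the members of the miR-193 and miR-365 clusters lay below it. With the positive controls set equal limma called 3 higher and 0 lower, where 15.9% and 3.62% of all kept miRNAs were called, and the list's median was 1.15 against 0.092 over all. EdgeR called 6 higher and 0 lower, with 25.7% and 14.1% of all kept miRNAs called and medians of 1.07 for the list and -0.03 over all. Of 8 probes for reported repressors of Mcl1, 6 were kept, with 1 called higher, miR-125b-5p (1.26, adjusted p = 0.00853), and 3 lower. The largest falls among them were those of miR-101b (-1.89, adjusted p = 0.00339) and miR-101a (-1.08, adjusted p = 0.0212). The list's median was -0.91, near that of all kept miRNAs (-0.90). With the positive controls set equal limma called 1 higher and 0 lower (median 0.11 against 0.092 over all), and edgeR called 1 higher and 1 lower (-0.02 against -0.03).

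Of 12 probes for miRNAs reported to act in brown fat, the other setting in which the miR-193b cluster is known, 9 were kept. Limma called 4 lower and 0 higher, beside 46.7% called lower over all kept miRNAs, with a median of -0.81 against -0.90 over all. The calls included miR-203 (-2.29, adjusted p = 0.00274) and miR-30c (-1.75, adjusted p = 0.00339), both detected in all 4 samples. They also included miR-455 (adjusted p = 0.00642), which was above background in 1 normal liver and 1 tumour, so no size is given for it. With the positive controls set equal limma called 1 of the 9 higher and 0 lower (median 0.21 against 0.092 over all), and edgeR called 2 each way (0.087 against -0.03). MiR-378 and miR-30c are also on the hepatocyte list below.

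Marker miRNAs of several cell types moved with the comparison in the deposited scaling. In whole tissue, fewer cells of a type and less RNA per cell cannot be told apart. The 11 probes of the hepatocyte-enriched list made up 24.0% and 25.3% of miRNA counts in tumours, against 35.4% and 37.8% in normal liver. All 11 were detected in each sample but liver tumour replicate 2, where 10 were. Limma called 10 of the 11 lower, beside 46.7% of all kept miRNAs, with a median of -1.27 against -0.90 over all. MiR-101b fell by 1.89 on the log2 scale (adjusted p = 0.00339). MiR-802 was also called (limma adjusted p = 0.0014). Its count of 20 in liver tumour replicate 1 was just above the detection threshold of 17.6. Its count of 6 in liver tumour replicate 2 was below the threshold of 14.9, so no size is given. With the positive controls set equal 1 of the 11 was called lower, beside 3.62% of all, with a median of -0.25 against 0.092. EdgeR called 3 lower, beside 14.1% of all, with a median of -0.40 against -0.03. With miR-122 set equal in all samples, a setting chosen after seeing the data, the differences of miR-193, miR-193b and miR-365 were -0.04, 0.25 and -0.17. Limma called none (adjusted p = 0.946, 0.601 and 0.752), with 6.88% of kept miRNAs called lower. The median over all kept miRNAs moved as well, to -0.03. In the deposited scaling miR-122 itself differed by -0.90, close to the median over all.

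Of the marker lists of other cells, the bile duct and mesenchymal ones held the rises that limma called in the deposited scaling. The counts below stand beside 46.7% called lower and 7.97% called higher over all kept miRNAs in that scaling. With the positive controls set equal these shares were 3.62% and 15.9%, and in edgeR with TMM factors 14.1% and 25.7%. The 5 bile duct and epithelial probes summed to 207 and 211 scaled counts in the normal livers, where 2 of the 5 were detected, and to 1301 and 1261 in the tumours, where 5 and 3 were detected. Limma called 3 of 4 kept ones higher, among them miR-200a (3.05, adjusted p = 0.0017) and miR-200b (2.59, adjusted p = 0.00274). The third, miR-429 (adjusted p = 0.0014), and miR-200c, which was called lower, were below the detection threshold in both normal livers, so no size is given for them. The 3 rises were also called by edgeR and by limma after equalising the positive controls, and the call of miR-200c was not. The 7 mesenchymal probes summed to 2555 and 2218 in normal liver against 5863 and 4403 in tumours, with 3 of 6 kept ones called higher (miR-199a-5p 2.16, adjusted p = 0.0036) and 0 lower. With the positive controls set equal 3 of 6 were called higher, and in edgeR 5. The leukocyte probes summed to 1308 and 1672 against 1271 and 1030, with 2 of 6 called lower and 0 higher. That turned to 2 higher and 0 lower after equalising the positive controls, while edgeR called 3 higher and 1 lower. The endothelial probes summed to 5229 and 4599 against 3879 and 4116, with 1 of 2 called lower, against 0 called with the positive controls set equal and 1 called higher in edgeR. The erythroid probes summed to 1571 and 1300 against 1720 and 1843, and limma called 0 of 3, against 3 called higher by edgeR and 2 by limma after equalising the positive controls. In the deposited scaling the median difference was 0.70 for the mesenchymal list, -0.07 for the leukocyte one, -0.59 for the endothelial one and 0.47 for the erythroid one. Over all kept miRNAs it was -0.90. The part of these cell types in the members' differences was not tested.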

How the data were processed

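MiRNAs were measured in 2 normal liver samples and 2 liver tumour samples from mice with the nCounter miRNA Expression Assay, per the labels. The values the authors deposited are signal values, namely probe counts that they multiplied by 1 factor per sample; the software is not given in the sources used here. Control probes were left unscaled. Counts and factors were recovered as the step that made all scaled values whole. The main test was limma 3.58.1 (R 4.3.3), two-sided, on log2(value + 1) over all 4 samples, with Benjamini-Hochberg adjustment over 276 kept miRNAs and a threshold of 0.05. The filter on low values required a mean log2 value over 3.925, set 2 SD above the mean of the negative controls after scaling. The added 1 shrinks differences of low miRNAs. EdgeR 4.0.16 (quasi-likelihood) was run on the recovered counts as an alternative. Limma and edgeR were tested on simulated data. The alternatives were other scalings, filters, pseudocounts, background subtraction, left-out samples, a replicate block and variance models. Named miRNAs were the members, the 5 nearest to each in profile, and up to 3 per list with the largest differences. Sequences are from RefSeq (GRCm38.p6). The members and lists were chosen with earlier results of these data known.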

Additional observations from a re-analysis of the deposited data

How the results depend on the processing

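With 2 samples a group, and 33 to 39 counts of miR-193 in normal liver, precision is limited. The log2 differences of miR-193, miR-193b and miR-365 were -0.12, 0.16 and -0.26 with equal medians, -0.46, -0.18 and -0.60 with equal totals, 0.085, 0.37 and -0.0499 when the positive controls were equal, and -0.0804, 0.21 and -0.22 in edgeR with TMM factors. They were -0.0364, 0.25 and -0.17 with miR-122 set equal and -0.99, -0.72 and -1.14 with the messenger RNA probes set equal. None of these was called, and the cause was not tested. With quantile normalization miR-193 lost its call (-0.41), as it did with no filter (-0.92, with 566 miRNAs tested). With background subtracted miR-193 (-0.72) and miR-365 (-1.04) lost theirs. MiR-193b gained a call with a pseudocount of 30 (-0.54), with an intensity trend (-0.65) and in edgeR with the authors' factors (-0.64). Leaving out each sample in turn, the differences were -1.27 to -0.57 for miR-193, -0.93 to -0.37 for miR-193b and -1.18 to -0.96 for miR-365. The ratio differences were 0.21 to 0.36 for miR-193b to miR-193, -0.47 to 0.19 for miR-365 to miR-193, which reversed without liver tumour replicate 2, and -0.67 to -0.17 for miR-365 to miR-193b.

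The 22 miRNAs called higher became 59 with equal medians, 34 with equal totals, 44 when the positive controls were equal, 12 with background subtracted, 71 in edgeR with TMM factors, 11 with the messenger RNA probes set equal and 39 with miR-122 set equal. The 129 called lower became 50, 74, 10, 5, 39, 95 and 19 under the same settings, 13 with quantile normalization, 276 with no filter and 50 over the miRNAs detected in all 4 samples. With a sample left out, 7 to 18 were called higher and 47 to 127 lower. Deviations of same-numbered samples correlated at 0.0421 over 276 miRNAs, and nothing else ties the numbers together. With the replicate number as a block, 19 were called higher and 143 lower, and miR-193 (-0.92, limma adjusted p = 0.0322), miR-193b (-0.65, adjusted p = 0.14) and miR-365 (-1.07, adjusted p = 0.012) stayed on the same side of the threshold.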
